A study of Mus musculus with 18 samples.

Results

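The genes described here encode the nuclear part of the mitochondrial respiratory chain. They were chosen by symbol from the table of all genes: those whose names begin with Ndufa, Ndufb, Ndufc, Ndufs, Ndufv, Uqcr, Cox4, Cox5, Cox6, Cox7, Cox8 or Atp5, and the genes Sdha, Sdhb, Sdhc, Sdhd and Cyc1. Of 24445 gene symbols 95 met the rule, and 94 were kept after 1 pseudogene was left out. By the complex they belong to, 36 were assigned to complex I, 4 to complex II, 9 to complex III, 20 to complex IV and 17 to complex V, and the other 8 were complex I assembly factors (the Ndufaf genes), which the prefix Ndufa also takes in. Ndufa4, its paralog Ndufa4l2 and Cox7a2l were placed with complex IV. Of the 94 genes, 88 reached 1 FPKM (fragments per kilobase of transcript, scaled to library size) in at least 2 libraries and could be tested.

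Primary fibroblasts from mouse tail tips (age 2 months) were harvested at passage 5, in a study of CRISPR/Cas9 treatment of mice with Hutchinson-Gilford progeria. The genotypes were 3, each with 2 mice: Pro/Pro;Cas9/+, +/+;Cas9/+, and Pro/+; +/+, the last of which carries no Cas9. Cells of every mouse received 1 of 3 guides from an mCherry lentivirus, namely gMock, gLmna-1 or gLmna-2, which gave 9 groups of 2 and 18 libraries from 6 mice. The gMock guide matches nothing in the genome. Pro/Pro;Cas9/+ cells therefore have both Pro alleles and the Cas9 transgene, +/+;Cas9/+ cells have the transgene alone, and Pro/+; +/+ cells receive guides without a transgenic Cas9. The cultures were neither sorted nor selected, more than 80% of cells were mCherry-positive per the labels, and the promoter that drives Cas9 is not given in the sources used here. One Pro/+; +/+ mouse carries a double number in its labels, which do not say whether 1 animal or a pool was used. Mice are numbered 1 and 2 within a genotype.

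The respiratory chain passes electrons from NADH (complex I) and succinate (complex II) through complex III and cytochrome c to oxygen at complex IV. Complexes I, III and IV pump protons across the inner mitochondrial membrane, and complex V, the ATP synthase, lets them back in to make ATP. All the subunits of complex II and most of those of the other complexes are encoded in the nucleus, and a few core subunits of complexes I, III, IV and V are encoded by mitochondrial DNA. The mitochondrially encoded genes, of which 0 of 13 matched a row of the table, were not analysed here.

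Many nuclear genes of the chain are known to carry binding sites for NRF1, for ETS factors such as GABPA, for YY1 and for Sp1 near their start sites. RefSeq promoters, from 250 bases before to 50 bases after a gene's start site on build GRCm38.p6, matched 76 of the 94 members and were searched on both strands. The NRF1 motif, shown in capitals in the sequences that follow, with any base accepted at its sixth letter, was found in 19 of 76 members (25%), in 11.6% of the 9833 tested genes with a promoter and in 5.19% of all 27025 genes with one. The ETS motif CCGGAAG was found in 25% of the members and in 20.3% of tested genes, the YY1 motif AAGATGGCG in 10.5% and 3.57%, and the Sp1 motif GGGCGG in 46.1% and 69.5%. By complex, the NRF1 motif was in the promoters of 7 of 32 complex I genes, 2 of 3 of complex II, 1 of 5 of complex III, 1 of 14 of complex IV and 6 of 15 of complex V. A match is a description of letters only, and shorter motifs match more often and can overlap longer ones. The 4 stretches of 30 bases that follow show the NRF1 motif in capitals upstream of a subunit gene from each of complexes I, II, IV and V, on the gene's own strand: Ndufs5 at chr4:123718265-123718294 (−), Sdha at chr13:74350319-74350348 (−), Cox6a1 at chr5:115349101-115349130 (−) and Atp5h at chr11:115420041-115420070 (−).
Ndufs5: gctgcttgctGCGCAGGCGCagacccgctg
Sdha: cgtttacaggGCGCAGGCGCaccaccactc
Cox6a1: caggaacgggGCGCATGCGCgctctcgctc
Atp5h: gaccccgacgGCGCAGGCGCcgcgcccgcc
The motif ends 88, 88, 152 and 131 bases before the start site in the order shown.

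A second set of sequences bears on how some levels can be read. Genes of the chain have many processed pseudogenes, and a read that fits several places in the genome is often dropped or split. In 33 of the 94 members at least 10% of the transcript's 50-base windows were found, with at most 1 mismatch, in another annotated gene. The 3 coding stretches that follow are held letter for letter by pseudogenes. They are from Cox7c (chr13:86045756-86045800, −, in 3 pseudogenes), Ndufb4 (chr16:37649014-37649058, −, in 3) and Atp5l (chr9:44913421-44913465, −, in 9) on build mm10.
Cox7c: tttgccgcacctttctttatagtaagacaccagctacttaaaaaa
Ndufb4: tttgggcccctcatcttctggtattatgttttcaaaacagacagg
Atp5l: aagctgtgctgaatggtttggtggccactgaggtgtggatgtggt
All 3 genes encode subunits that every cell type is thought to need, of complex IV, complex I and complex V. In the table Cox7c had a mean of 0.648 FPKM over 18 libraries (54.6% of its windows in other genes), Atp5l a mean of 0.389 FPKM (69.1%) and Atp5g2, a gene for subunit c of the ATP synthase, a mean of 0.299 FPKM (87.4%). These 3 were listed below 1 FPKM on average and were not tested. Ndufb4 was listed at 11.4 FPKM, but almost all of it came from 1 end part of 54 bases at 94.1 FPKM, while its parts of 62, 146 and 179 bases were at 0.304, 0.203 and 0.00828 FPKM. Atp5g1, Ndufab1 (the acyl carrier protein) and Atp5md were also low, at 1.98, 2.08 and 2.31 FPKM, with 13.5%, 12.3% and 41.5% of their windows in other genes. Near copies did not go with a low value in every case: Atp5h had 68.9% of its windows in other genes and a mean of 48.6 FPKM, and Ndufa12 had 68.3% and 27.2 FPKM. The levels of members with near copies are therefore uncertain, and the part that multiply mapping reads play in them was not tested.

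**Figure D1:**
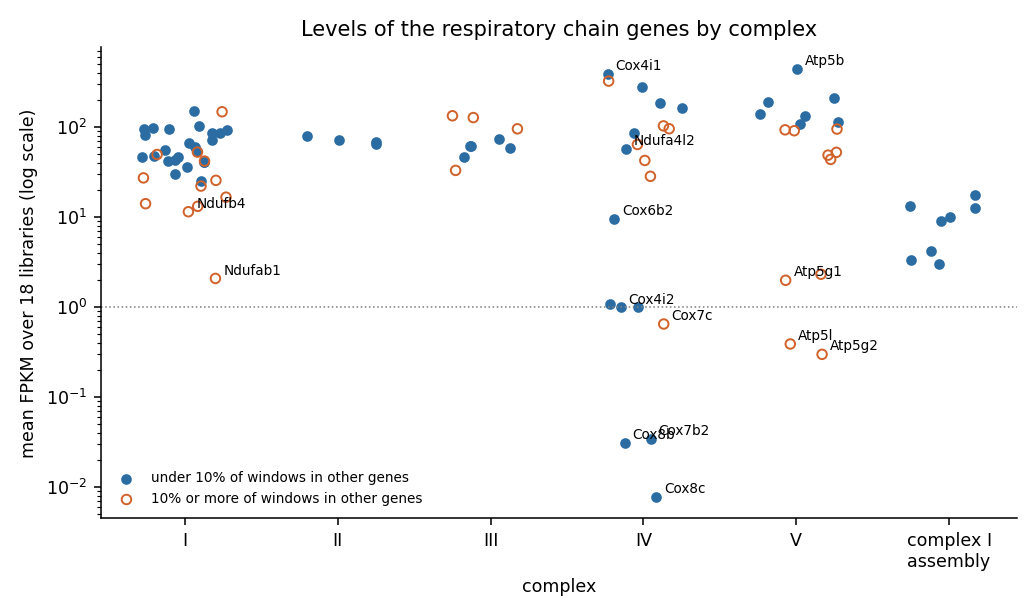
Mean FPKM over the 18 libraries (log axis) of each of the 94 genes by complex. Open circles mark genes with at least 10% of their 50-base windows in another gene, and the dotted line is 1 FPKM. Atp5b (442 FPKM) and Cox4i1 (390 FPKM) are the highest, and Cox7c, Atp5l and Atp5g2 lie below 1 FPKM.

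Whole-series values frame these numbers. Library depth, worked out from the smallest steps between values, was 22424447 to 42622336 reads. Fibroblast markers were present in every library, with a summed level of 6892 to 9150 FPKM, and Col1a1 alone ranged from 1070.0 to 3162 FPKM. Macrophage markers, all 9 of which were detected, were summed at 458 to 1513 FPKM in the 6 Pro/Pro;Cas9/+ libraries, 67.9 to 418 FPKM in the +/+;Cas9/+ libraries and 73.3 to 594 FPKM in the Pro/+; +/+ libraries. Lmna, the target of both guides, was listed at 195.7 to 381 FPKM over the 18 libraries, and its level checks no label because a cut need not lower it. In bulk RNA, fewer cells of a type and less RNA per cell cannot be told apart. The 2 mice of a group are separate animals, so p-values rest on very few of them.

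All 5 complexes were expressed, at levels that overlapped between them. The median subunit was at 46.9 FPKM in complex I, 70.0 in complex II, 61.3 in complex III, 75 in complex IV and 94.6 in complex V, and the median assembly factor at 9.52 FPKM. Over the 18 libraries the median of complex II ranged only from 66.2 to 74.6 FPKM, that of complex I from 42.3 to 56.9, of complex III from 55.7 to 76.3, of complex IV from 71.5 to 92.1 and of complex V from 87.3 to 117 FPKM. The highest values of complexes I, III and V all fell in the same library, gLmna-1 of Pro/Pro;Cas9/+ mouse 1. The median of complex IV is sensitive to Ndufa4l2, which ranged from 12.1 to 129 FPKM, below that median in some libraries and above it in others. In all 18 libraries Cox4i1, the common form of subunit 4 of cytochrome c oxidase, led complex IV, Atp5b, the catalytic beta subunit of the ATP synthase, led complex V, and Ndufaf2, an assembly factor of complex I, led the assembly factors. Ndufa3, an accessory subunit, led complex I in 14 libraries and Ndufa7 in the other 4. Sdhc, a membrane anchor of succinate dehydrogenase, led complex II in 16 libraries, and Uqcrh, the hinge protein of complex III, led its complex in 14.

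Within a complex the levels differed widely. In complex I the means ran from 2.08 FPKM (Ndufab1) to 152 FPKM (Ndufa3), and in complex III from 32.9 FPKM (Uqcrb) to 133 FPKM (Uqcrh). Ndufab1, Uqcrb, Uqcrh and, in complex V, Atp5g1 have 12.3%, 59.1%, 13.5% and 13.5% of their windows in other genes, so their levels are uncertain. The 4 subunits of complex II lay close together, between 64.8 FPKM (Sdhb, the iron-sulfur subunit) and 78.9 FPKM (Sdhc). In complex V the lowest tested gene was Atp5g1 at 1.98 FPKM and the highest Atp5b at 442 FPKM, and among assembly factors Ndufaf6 at 3.00 FPKM was lowest and Ndufaf2 at 17.7 FPKM highest. The subunit c of the ATP synthase is encoded by 3 genes for 1 mature protein, and of these Atp5g3 carried nearly all of the listed signal at 187 FPKM.

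From library to library the members varied less than most genes. The median standard deviation of log2(FPKM + 1) over the 18 libraries was 0.11 for the 88 tested members, against 0.18 for all 12599 tested genes and 0.15 for the 6345 tested genes in the members' range of level (the 10th to 90th percentile). Mitochondrial ribosomal protein genes had 0.13, cytosolic ribosomal protein genes 0.18, genes of the tricarboxylic acid cycle 0.09 and glycolysis genes 0.27. Atp5a1 (0.06), Sdhd (0.06) and Sdha (0.06) were the steadiest members. The exception was Ndufa4l2, with a standard deviation of 1.13, which ranked 73 of 12599 tested genes. Next came Cox4i2 (0.54), Cox6a2 (0.34) and Cox6b2 (0.28), all of them tissue-restricted isoforms of complex IV subunits.

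Complex IV has paired isoforms, a common one and one known from other tissues, and the common one led in every pair. Cox8b, a muscle and heart form, was listed at 0 in 13 of 18 libraries, Cox8c (testis) in 16 and Cox7b2 in 9, with highest values of 0.155, 0.0729 and 0.0830 FPKM. With Cox7c, Atp5l and Atp5g2 they make up the 6 members that were not tested. The muscle and heart forms Cox6a2 and Cox7a1 were low but tested, with means of 0.998 and 1.08 FPKM. Cox6a2 was at 0.306% of Cox6a1 (median of 18 libraries, range 0.117 to 0.642%) and Cox7a1 at 1.14% of Cox7a2 (0.539 to 2.01%), both ratios of FPKM values. Cox6b2, known from testis, reached 3.09% of Cox6b1 (2.51 to 4.84%), with a mean of 9.52 FPKM. Skeletal muscle markers were summed at 9.12 to 66.9 FPKM, most of it Acta1, while the muscle creatine kinase gene Ckm did not exceed 0.0902 FPKM. Brown adipocyte markers were summed at 0.895 to 2.03 FPKM.

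The first question was whether a guide against Lmna changed the chain. In each genotype the mean of the gLmna-1 and gLmna-2 libraries was compared with gMock of the same mice, using limma on log2(FPKM + 1) with the mouse as a block and Benjamini-Hochberg adjustment over all 12599 genes. No member was called in any genotype at an adjusted p under 0.05. In Pro/Pro;Cas9/+ cells 0 of 88 were called, with 0.0794% of all genes called, and the members' median log2 difference was 0.03 against −0.01 for all genes. In +/+;Cas9/+ cells 0 of 88 were called (all genes, 0.849%), with a median of −0.04 against −0.02. In Pro/+; +/+ cells 0 of 88 were called (all genes, 0%), with a median of −0.06 against −0.04. At an unadjusted p under 0.05 the counts were 1, 1 and 0 members, against 1055, 959 and 397 of the 12599 genes. Limma voom on recovered reads called 0 members in each. Counts by limma voom, here and below, are given without those over all genes and are not read as a result about the members. The 95% interval of the difference lay within 1.5-fold in either direction for 84, 86 and 83 of the 88 members.

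The members with the smallest p-values in these comparisons moved little. In Pro/Pro;Cas9/+ cells they were Ndufv3, a small accessory subunit of the NADH-oxidising module of complex I (log2 difference 0.17 ± 0.05 SE, adjusted p = 0.438), Cox6a2 (−0.35 ± 0.19, adjusted p = 0.69) and Atp5g1 (0.22 ± 0.13, adjusted p = 0.75). In +/+;Cas9/+ cells they were Ndufs7, which holds the last iron-sulfur cluster before ubiquinone (−0.24 ± 0.10, adjusted p = 0.638), Ndufab1 (−0.28 ± 0.13, adjusted p = 0.661) and Uqcrc2, a core protein of complex III (−0.12 ± 0.06, adjusted p = 0.68). In Pro/+; +/+ cells they were Cox7a1 (0.37 ± 0.18), Atp5k (−0.15 ± 0.07) and Ndufb6 (−0.20 ± 0.10), each with an adjusted p of 0.996. None of these 9 passed the test.

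Whether the guide effect differed between genotypes was tested directly and gave no call among the 88 members in any pair. Between Pro/Pro;Cas9/+ and +/+;Cas9/+ 0.0476% of all genes were called, between Pro/Pro;Cas9/+ and Pro/+; +/+ 0%, and between +/+;Cas9/+ and Pro/+; +/+ 0.294%. At an unadjusted p under 0.05 the counts of members were 1, 2 and 0, against 382, 523 and 484 of all genes, and limma voom called 0 in each. The smallest p-values belonged to Atp5g1 (0.46 ± 0.19), Ndufaf3 (0.25 ± 0.12) and Ndufb6 (0.26 ± 0.14) in the first pair, and to Cox6a2 (−0.63 ± 0.26), Ndufb6 (0.32 ± 0.14) and Ndufv3 (0.15 ± 0.08) in the second, all with an adjusted p of 1. In the last pair they belonged to Ndufab1 (−0.37 ± 0.18), Uqcrh (0.24 ± 0.12) and Cox7b (0.18 ± 0.09), with an adjusted p of 0.964. These comparisons share control libraries with the ones before.

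**Figure D2:**
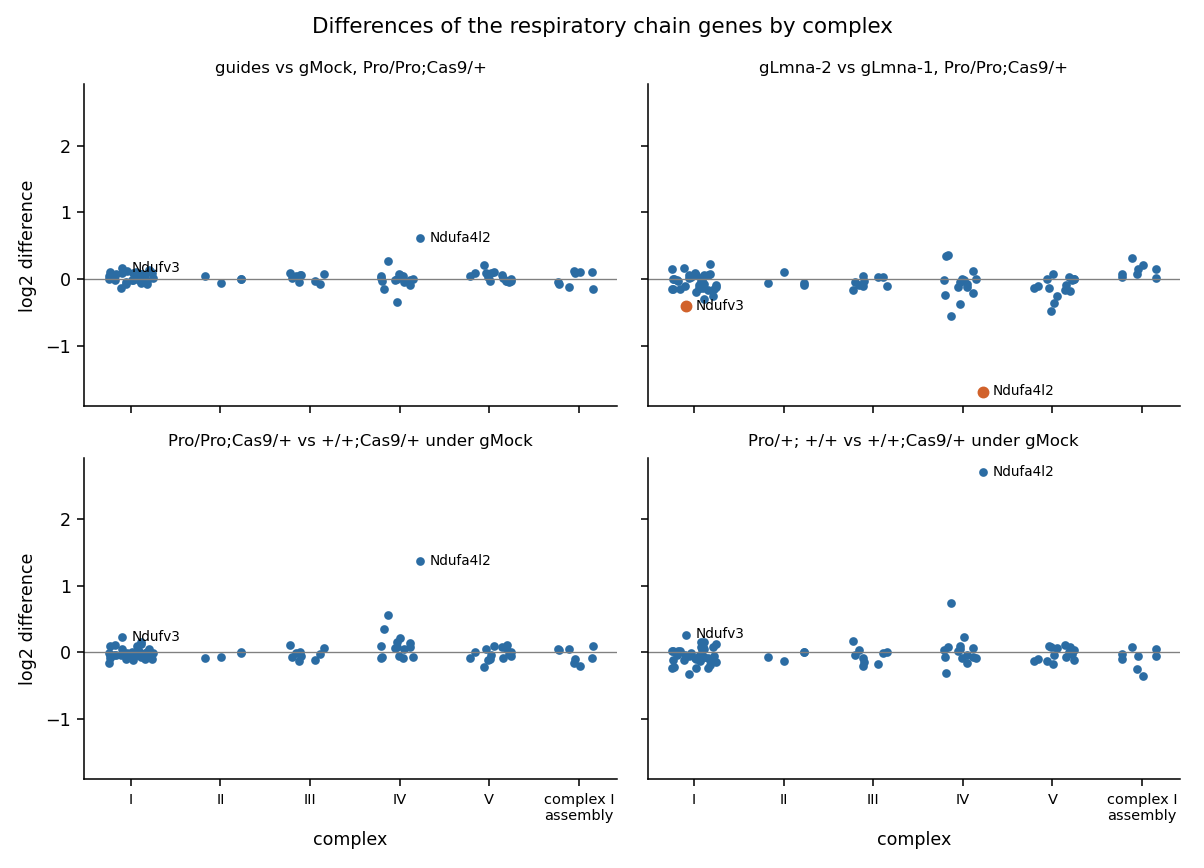
Log2 difference of each of the 88 tested genes by complex in 4 comparisons, with orange points for an adjusted p under 0.05 (limma). Nearly all points lie close to 0. Ndufa4l2 is the farthest in each panel, and it and Ndufv3 are the 2 called genes, both lower under gLmna-2 than under gLmna-1 in Pro/Pro;Cas9/+ cells.

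The 2 guides were then compared with each other. In Pro/Pro;Cas9/+ cells 9.95% of all genes differed between gLmna-2 and gLmna-1, and 3.02% were lower under gLmna-2. The 1253 genes called fell to 59 without the mouse as a block and to 0 when that genotype was fitted alone. Among the members 2 of 88 (Ndufv3 and Ndufa4l2) were called, both lower under gLmna-2, a share below that of all genes, and 81 of 88 had an interval within 1.5-fold. Next by p was Ndufb11, an X-linked complex I subunit (−0.29 ± 0.10, adjusted p = 0.103). In +/+;Cas9/+ cells 0 members were called (all genes, 0%), as in Pro/+; +/+ cells (all genes, 0%). There limma voom called 0 in both, and 0 members had an unadjusted p under 0.05 in either, against 1009 and 266 of all genes. The smallest p-values were those of Ndufb6 (0.25 ± 0.11), Ndufaf3 (0.21 ± 0.10) and Ndufb4 (0.24 ± 0.12) in +/+;Cas9/+ cells and of Ndufs1 (−0.12 ± 0.07), Cox7a1 (−0.33 ± 0.20) and Ndufa6 (0.16 ± 0.10) in Pro/+; +/+ cells. The adjusted p was 0.63 to 0.655 for the first 3 and 1 for the others.

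Ndufv3 was higher under gLmna-1 in both Pro/Pro;Cas9/+ mice. In mouse 1 it was at 97.7 FPKM with gMock, 129.9 FPKM with gLmna-1 and 95.9 FPKM with gLmna-2, and in mouse 2 at 89.6, 113 and 86.8 FPKM. In +/+;Cas9/+ cells it lay between 78.2 and 89.2 FPKM, and in Pro/+; +/+ cells between 92.1 and 103 FPKM. These 2 gLmna-1 libraries were thus above all the other 16. The log2 difference of gLmna-2 from gLmna-1 was −0.40 ± 0.06 SE (adjusted p = 0.00783, limma), in a comparison that called 9.95% of genes. Without the gLmna-2 library of mouse 1 or of mouse 2 the adjusted p was 0.0726 or 0.0578, without the block 0.0875, and with that genotype fitted alone 0.233. Because the gLmna-1 libraries stood apart, gLmna-1 was also compared with gMock alone, an addition made after the data were seen: Ndufv3 was 0.37 ± 0.06 higher (adjusted p = 0.039) and was the only 1 of 88 members called, with 0.976% of all genes called. That call was lost without the gMock library of mouse 1 (adjusted p = 0.0788) or of mouse 2 (0.384), or the gLmna-1 library of mouse 2 (0.0521). No member was called for gLmna-2 against gMock (all genes, 0.357%, with 1 member and 1272 of all genes at an unadjusted p under 0.05, and 0 members by limma voom).

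The transcript used for Ndufv3 is its short form. Its long form has an additional part of 1091 bases (chr17:31527310-31528401, +, build mm10) that the short form skips. This part was at 20.8, 21.2 and 20.8 FPKM under gMock, gLmna-1 and gLmna-2 in Pro/Pro;Cas9/+ mouse 1 and at 13.6, 16.8 and 15.7 FPKM in mouse 2. A part that both forms share, of 142 bases, was at 193, 247 and 194 FPKM in mouse 1 in the same order and at 175, 222 and 166 FPKM in mouse 2. The long-form part was thus at 7.56 to 12.7% of the shared part over the 18 libraries, and its level ranged from 12.9 to 21.9 FPKM. Under gMock, gLmna-1 and gLmna-2 this ratio was 10.7%, 8.58% and 10.7% in Pro/Pro;Cas9/+ mouse 1. In mouse 2 it was 7.78%, 7.56% and 9.48%. Both parts were highest under gLmna-1 in each of these mice. Whether the 2 forms changed alike was not tested.

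The direct test of the difference between genotypes, also added after the data were seen, gave for Ndufv3 a gLmna-2 against gLmna-1 difference in Pro/Pro;Cas9/+ that was 0.41 ± 0.09 lower than in Pro/+; +/+ (log2 difference −0.41, adjusted p = 0.048), with 2.38% of all genes called and 1 of 88 members. Without gLmna-1 of Pro/Pro;Cas9/+ mouse 1 the adjusted p was 0.0199, and leaving out any other of the libraries compared took it to between 0.0522 and 0.221. Against +/+;Cas9/+ it was −0.44 ± 0.09 (adjusted p = 0.151, or 0.0367 without gLmna-1 of Pro/Pro;Cas9/+ mouse 1), and 0 of 88 members were called (all genes, 0.0476%, with 3 members and 1250 of all genes at an unadjusted p under 0.05, and 0 members by limma voom). Ndufa4l2 was among the 3 smallest p-values in these added comparisons, except for gLmna-2 against gMock: 1.45 ± 0.43 for gLmna-1 against gMock (adjusted p = 0.137), −1.81 ± 0.61 for the difference from Pro/+; +/+ (adjusted p = 0.153) and −1.38 ± 0.61 for the difference from +/+;Cas9/+ (adjusted p = 0.499). Others among the 3 smallest were Ndufaf4 (−0.27 ± 0.11 for gLmna-1 against gMock, adjusted p = 0.242, and 0.44 ± 0.15 for the difference from Pro/+; +/+, adjusted p = 0.167), Ndufb11 (−0.33 ± 0.14 for the difference from +/+;Cas9/+, adjusted p = 0.483, and −0.20 ± 0.10 for gLmna-2 against gMock, adjusted p = 0.57), Cox6a2 (−0.53 ± 0.21, adjusted p = 0.431) and Ndufaf3 (0.21 ± 0.10, adjusted p = 0.527), the last 2 for gLmna-2 against gMock.

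Ndufa4l2 encodes a paralog of the complex IV subunit Ndufa4 and is known as a gene induced in low oxygen. It was the member that differed most between libraries. In Pro/Pro;Cas9/+ mouse 1 it was at 68.1 FPKM with gMock, 81.4 FPKM with gLmna-1 and 42.8 FPKM with gLmna-2, and in mouse 2 at 19.7, 129 and 22.7 FPKM. In +/+;Cas9/+ cells all 6 libraries were low, at 12.1 to 27.9 FPKM, and in Pro/+; +/+ cells all 6 were high, at 76.9 to 104.6 FPKM. Each set of 6 libraries came from only 2 mice, so its values are not independent. The first genotype's gLmna-2 to gLmna-1 difference was −1.68 ± 0.43 (adjusted p = 0.0406, limma), and it rested on mouse 2: without the gLmna-1 library of that mouse it was −0.70 (adjusted p = 0.148). Without the gLmna-2 library of mouse 1 or of mouse 2 it was −1.86 (adjusted p = 0.159) or −1.51 (adjusted p = 0.206), and without the gLmna-1 library of mouse 1 it was −2.67 (adjusted p = 0.000785). With all the libraries its adjusted p was 0.14 without the block, 0.293 with that genotype fitted alone, 0.0751 with no filter on low values and 0.0578 after quantile normalization. Ndufa4 itself went the other way in mouse 2, at 231, 159 and 206 FPKM under gMock, gLmna-1 and gLmna-2, and stood at 178, 212 and 193 FPKM in mouse 1. The ratio of Ndufa4l2 to Ndufa4 therefore spanned 8.53 to 81.2% over the Pro/Pro;Cas9/+ libraries, against 6.54 to 14.8% in +/+;Cas9/+ and 45.1 to 62.1% in Pro/+; +/+ cells.

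Cox4i2, the isoform of subunit 4 that is also known from low oxygen, had its highest value in the same library. It stood at 3.00 FPKM (66 reads) in gLmna-1 of Pro/Pro;Cas9/+ mouse 2, against 0.969 and 0.756 FPKM in that mouse under gMock and gLmna-2. In mouse 1 of Pro/+; +/+ it was at 2.11, 2.08 and 2.08 FPKM under the 3 guides and in mouse 2 at 0.667, 0.352 and 0.347 FPKM, so it followed the mouse there. In the +/+;Cas9/+ libraries it did not exceed 0.531 FPKM. Its common partner Cox4i1 stayed between 348 and 495 FPKM over the 18 libraries. Both Ndufa4l2 and Cox4i2 are known in pericytes, the cells that wrap small vessels, whose markers were listed after these values were seen. Of 9 such markers, Rgs5 did not exceed 1.24 FPKM and Higd1b 0.0575 FPKM in any library. Abcc9, Kcnj8 and Vtn did not exceed 0.65, 0.268 and 0.0756 FPKM. The remaining markers were higher, with Cspg4 reaching 24.4 FPKM, Mcam 13.6, Notch3 3.83 and Pdgfrb 123. Under gMock, gLmna-1 and gLmna-2, Rgs5 was at 0.849, 0.764 and 1.24 FPKM in Pro/Pro;Cas9/+ mouse 1 and at 0.438, 0.955 and 0.646 FPKM in mouse 2. In Pro/Pro;Cas9/+ cells the sum of the 9, most of it Pdgfrb, was 93.9 to 96.5 FPKM under gLmna-1 and 107.7 to 119.9 FPKM under gLmna-2. The macrophage sum was 458 to 1154 FPKM under gLmna-1 and 767 to 1513 FPKM under gLmna-2 in these cells. The part of pericytes or macrophages in any of these differences was not tested.

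**Figure D3:**
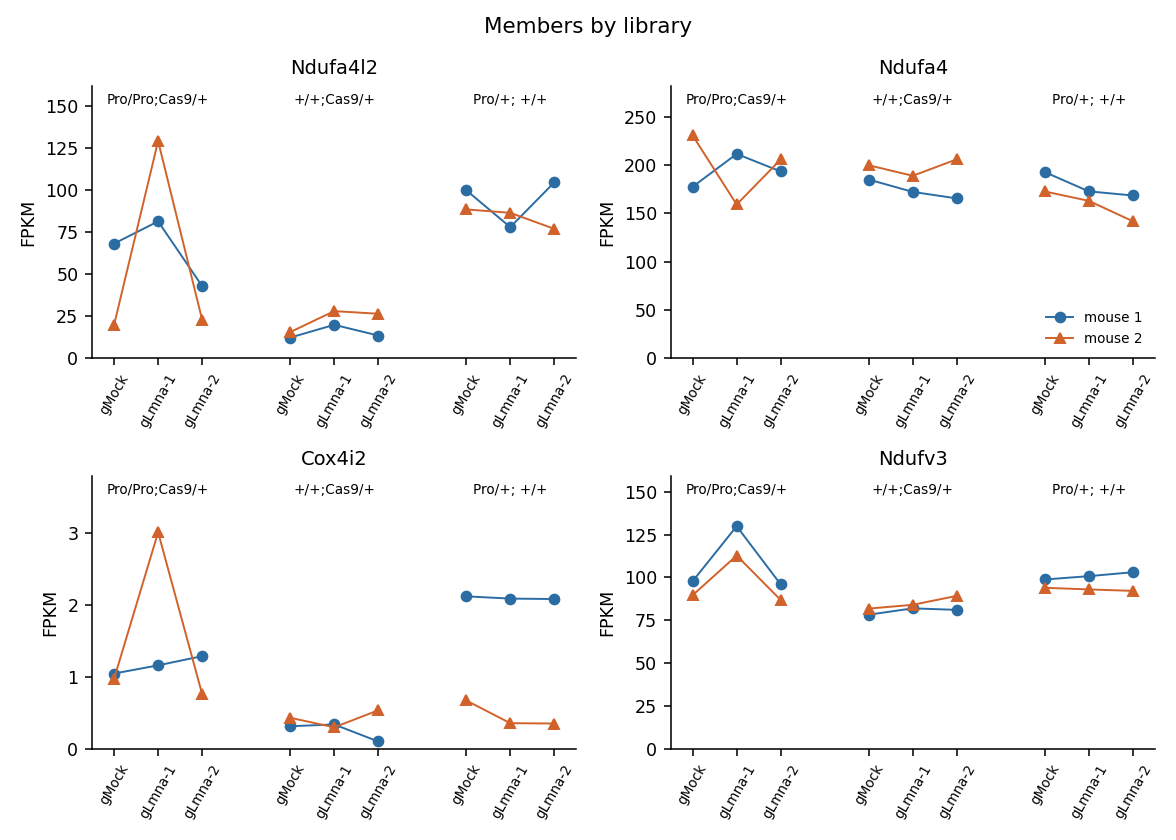
FPKM of Ndufa4l2, Ndufa4, Cox4i2 and Ndufv3 in each of the 18 libraries, with lines joining the 3 libraries of a mouse (circles for mouse 1 and triangles for mouse 2). Ndufa4l2 is low in all +/+;Cas9/+ libraries (12.1 to 27.9) and high in all Pro/+; +/+ libraries (76.9 to 104.6), and its highest value, 129, is gLmna-1 of Pro/Pro;Cas9/+ mouse 2.

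The genotypes were compared without a guide against Lmna, in the 6 gMock libraries. No member was called for Pro/Pro;Cas9/+ against +/+;Cas9/+ (all genes, 0.397%) or for Pro/+; +/+ against +/+;Cas9/+ (all genes, 0.413%). The members' medians were −0.01 and −0.05, against 0.00 and −0.01 for all genes, and 1 and 3 members had an unadjusted p under 0.05, against 1308 and 1577 of all genes. Intervals lay within 1.5-fold for 80 and 76 of the 88 members, and limma voom called 0 in both. Ndufa4l2 led both: 1.37 ± 0.53 (adjusted p = 0.448) in the first and 2.70 ± 0.53 (adjusted p = 0.146) in the second, with 68.1 and 19.7 FPKM in Pro/Pro;Cas9/+, 99.9 and 88.5 in Pro/+; +/+, and 12.1 and 15.4 in +/+;Cas9/+. In the second, Ndufa4l2 was not called, with 3 residual degrees of freedom in the fit. When the spread was taken from all 18 libraries instead, Ndufa4l2 was called (adjusted p = 0.012), but that fit counts the 3 libraries of a mouse as independent, whereas their deviations correlated by 0.47 to 0.73 in Pro/+; +/+ and by 0.18 to 0.59 in +/+;Cas9/+ mice. Cox6b2 (0.34 ± 0.16, adjusted p = 0.57) and Ndufv3 (0.22 ± 0.10, adjusted p = 0.586) followed in the first comparison, and Ndufv3 (0.27 ± 0.10, adjusted p = 0.388) and Ndufs7 (−0.32 ± 0.13, adjusted p = 0.397) in the second. Genotype and the presence of Cas9 cannot be told apart in the second comparison. Beside the first comparison, the macrophage markers had a median of 1.69 and their part in it was not tested.

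The 2 Pro/Pro;Cas9/+ mice moved in opposite directions as a whole under gLmna-1. In mouse 1, 81 of 88 members (92.0%) were higher under gLmna-1 than under gMock, with a median log2 difference of 0.25, while 46.9% of all tested genes were higher and their median was −0.02. In mouse 2, 8 of 88 members (9.09%) were higher and the median was −0.14, against 44.7% and −0.04 for all genes. Every complex took part: the medians in mouse 1 were 0.30 for complex I, 0.13 for II, 0.29 for III, 0.25 for IV and 0.29 for V, and in mouse 2 they were −0.14, −0.09, −0.18, −0.12 and −0.13. Both signs were the same when libraries were centred on their median (0.32 and −0.09) or quantile normalized (0.13 and −0.08), and no test over samples is possible with 1 library on each side. Cox4i1, for example, went from 407 to 495 FPKM in mouse 1 and from 392 to 348 FPKM in mouse 2. Ribosomal protein genes moved with the chain: the median of the cytosolic ones was 0.28 in mouse 1 and −0.20 in mouse 2, and that of the mitochondrial ones 0.20 and −0.20. Their part in the result was not tested. The libraries held 24013158 reads for gLmna-1 of mouse 1 and 42622336 for gMock, and 30480110 and 22905243 for mouse 2.

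In the other mice the medians were closer to 0 than in these, and +/+;Cas9/+ mouse 2 came nearest, with 13 of 88 members (14.8%) higher under gLmna-1 than under gMock, against 35.8% of all genes. In that mouse 74 of 88 members (84.1%) were higher under gLmna-2 than under gLmna-1, against 65.1% of all genes. For gLmna-1 against gMock the members' medians were −0.01 and −0.11 in the 2 +/+;Cas9/+ mice and −0.05 and −0.03 in the 2 Pro/+; +/+ mice, and for gLmna-2 against gMock all 6 mice lay between −0.09 and 0.06. The sign of several of these small medians turned with the scaling: that of gLmna-1 in Pro/+; +/+ mouse 1, for example, was 0.05 after median centring. The number of members called for gLmna-2 against gLmna-1 in Pro/Pro;Cas9/+ cells changed with the library left out. Without the gLmna-1 library of mouse 2, 15 of 88 members were called, beside 1180 of 12599 genes, and all 15 were lower under gLmna-2, among them Atp5j2 (−0.61, adjusted p = 0.0208), Ndufa2 (−0.50, adjusted p = 0.0170) and Cox6a1 (−0.43, adjusted p = 0.0297). Without the gLmna-1 library of mouse 1, 10 of 88 were called, beside 2631 of 12599 genes, of which 7 were higher, among them Ndufa12 (0.46, adjusted p = 0.0169) and Ndufa4 (0.44, adjusted p = 0.0253), and 3 were lower. Without the gLmna-2 library of mouse 1 or of mouse 2 none was called, beside 140 and 238 of all genes. Ndufv3 was lower in both of the first 2 settings, at −0.44 (adjusted p = 0.0177) and −0.37 (adjusted p = 0.00698).

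**Figure D4:**
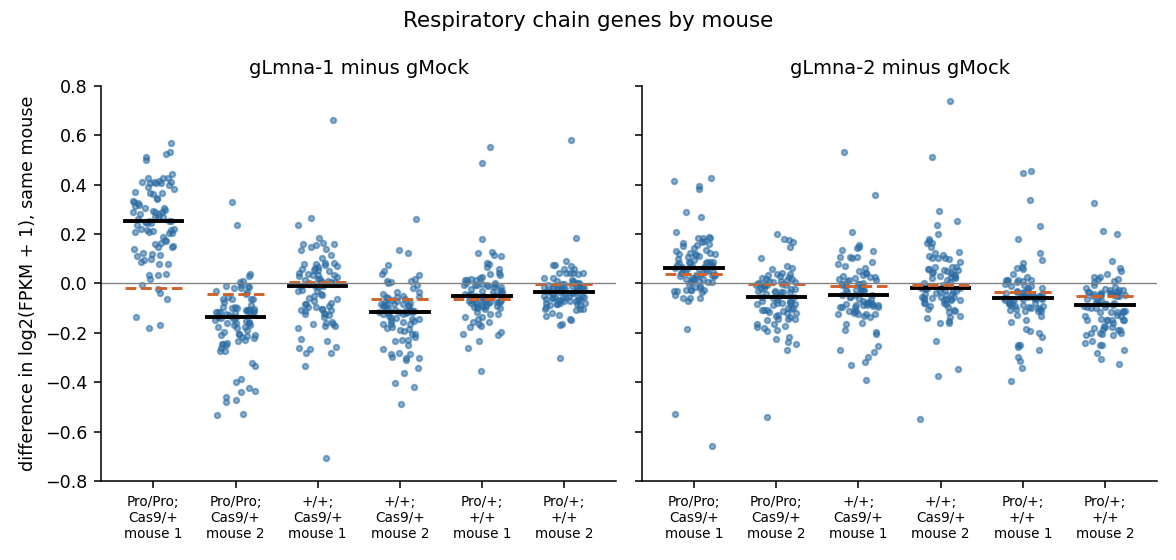
Difference in log2(FPKM + 1) of each of the 88 genes between a guide and gMock in the same mouse. Black bars are the members' medians and dashed orange bars those of all 12599 tested genes, and 4 points beyond 0.8 are not drawn (2 of Ndufa4l2, 1 each of Cox4i2 and Atp5md). Under gLmna-1 the members' median is 0.25 in Pro/Pro;Cas9/+ mouse 1 and −0.14 in mouse 2.

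Genes that build or serve the chain but fall outside the naming rule were given by lists chosen with earlier results in view. In gLmna-2 against gLmna-1 of Pro/Pro;Cas9/+, where 9.95% of all genes were called, 0 of 39 tested assembly factors outside the rule were called (median 0.06, against 0.06 for all genes), as were 0 of 14 regulators of mitochondrial genes (−0.01). The calls included 1 of 76 mitochondrial ribosomal protein genes, higher under gLmna-2 (0.03), 1 of 73 cytosolic ribosomal protein genes, also higher (−0.10), and 1 of 14 tricarboxylic acid cycle genes, lower (0.08). None was called among 17 glycolysis genes (−0.11), 26 import and chaperone genes (0.06), 6 outer membrane and carrier genes (0.19) and 12 proliferation genes (−0.23). Of cytochrome c and the inhibitor of the ATP synthase only 1 gene was tested, and it was not called (−0.25). In the genotype comparisons under gMock none of these lists had a called gene. There the glycolysis genes had medians of 0.25 for Pro/Pro;Cas9/+ and 0.43 for Pro/+; +/+ against +/+;Cas9/+, and the respiratory chain members −0.01 and −0.05. Cytochrome c itself (Cycs), which carries electrons from complex III to IV, was listed below 1 FPKM in all 18 libraries. How multiply mapping reads were counted is not given in the sources used here, and their part in that value was not tested.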

How the data were processed

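RNA of 18 fibroblast libraries from 6 mice was measured by RNA-seq. Per the submitters' processing notes, FastQC 0.11.2, STAR 2.4.0k and HOMER were used with build mm10. The deposited values are FPKM of transcript parts, per the file headers, with multiply mapping reads and strand handled in ways not given in the sources used here. The 404759 parts (2531 without a length left out) were combined, weighted by length, to 36795 transcripts, of which the highest on average stood for its symbol. Columns of the table with no match among the labels, 6 in number, were left out. Whole reads were recovered for 100% of the values examined (tolerance 0.05), giving 22424447 to 42622336 reads per library. Precision is limited by this depth and by 2 mice per group.

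Genes with 1 FPKM in at least 2 libraries (12599) were tested on log2(FPKM + 1) with limma 3.58.1 in R 4.3.3, with mouse as a block (6 residual degrees of freedom) or, between genotypes, in the 6 gMock libraries (3). P-values were adjusted by Benjamini-Hochberg over all genes, with a threshold of 0.05. A fold change on this scale understates the change of low genes. The same 2 mice gave all 3 guides of a genotype, so libraries of a mouse are paired. Deviations from the group means correlated by −0.02 to 0.78 within mice. The fit was also run on simulated counts in which the 2 mice of a genotype had the same guide response. That run therefore does not bear on comparisons where the 2 mice differed. Members named are, per comparison, up to 12 called ones (mean of 2 FPKM or more) or else the 3 smallest p, with the highest and lowest of each complex, those below 1 FPKM and isoform pairs. The members and lists were chosen with earlier results of these data known, and 4 comparisons and the pericyte and hypoxia lists were added after the values were seen. Alternatives changed pseudocount, filter, scaling, test, transcript choice, block, samples in the fit and each library. Near copies were sought in GENCODE vM21 transcripts.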

Additional observations from a re-analysis of the deposited data

Results flagged for a closer look

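The effect of gLmna-2 against gLmna-1 on Ndufv3 differed between Pro/Pro;Cas9/+ and Pro/+; +/+ cells by −0.41 on the log2 scale (limma, adjusted p = 0.048), with a change downwards in 2 of 2 Pro/Pro;Cas9/+ mice. In the Pro/+; +/+ mice the values under gLmna-1 and gLmna-2 were 100.7 and 103 FPKM and 92.9 and 92.1 FPKM. The comparison was added after the data were seen. Over its alternatives the adjusted p ranged from 0.0199 to 0.424, and it was 0.0604 with limma voom and 0.424 without the replicate block.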

How the results depend on the processing

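The count of called members was 0 in every planned comparison under every setting run, leaving out each library of the groups compared included, with 2 exceptions. The first was gLmna-2 against gLmna-1 in Pro/Pro;Cas9/+ (2 called): 1 was called with no filter on low values, 0 without the replicate block, 0 with only that genotype in the fit, and 0 to 15 when 1 library was left out. The second was Pro/+; +/+ against +/+;Cas9/+ under gMock (0 called), where 1 was called when group means were fitted on all 18 libraries. For gLmna-1 against gMock in Pro/Pro;Cas9/+ (1 called), 0 were called with no filter, without the block or with that genotype alone, and 0 to 7 with 1 library left out. For the difference of gLmna-2 against gLmna-1 between Pro/Pro;Cas9/+ and Pro/+; +/+ (1 called), 0 were called with no filter, with the mean over all transcripts, without the block, with the genotypes compared alone or with limma voom, and 0 to 9 with 1 library left out. For the difference between Pro/Pro;Cas9/+ and +/+;Cas9/+ (0 called), the count also changed with the library left out. In these added comparisons the counts with 1 library left out are given without those over all genes. Such counts are therefore not read as a result about the members. In gLmna-2 against gLmna-1 of Pro/Pro;Cas9/+ the count over all genes also changed with the library left out. The replicate block is the pairing of libraries by mouse. Over all genes, the first comparison called 1253, 59 without the block and 0 with that genotype alone, and the genotype comparisons under gMock 50 and 52, but 374 and 427 with group means on 18 libraries. Among named genes only Atp5g1 in Pro/Pro;Cas9/+ changed sign, when 1 library was left out: the range was −0.047, without the gMock library of mouse 1, to 0.48, without that of mouse 2. Leaving out the 30 tested members with near copies moved no median by as much as a member's median standard error. Members below 1 FPKM rest on few reads (Cox7c, 3 to 16 per library), too few for small differences to be detectable at this depth. A library left alone in its group is assumed to vary like the others.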

Other observations

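Values of other genes known to respond to low oxygen stood beside those of Ndufa4l2. Bnip3, a mitochondrial protein gene induced in low oxygen, was at 8.69 FPKM with gMock, 32.7 FPKM with gLmna-1 and 7.72 FPKM with gLmna-2 in Pro/Pro;Cas9/+ mouse 2 and at 31.7, 31.3 and 23.8 FPKM in mouse 1. It lay between 4.66 and 17.2 FPKM in the +/+;Cas9/+ libraries and between 25.8 and 36 FPKM in the Pro/+; +/+ libraries. Ldha, which makes lactate from pyruvate, was at 284, 450.2 and 289.8 FPKM in Pro/Pro;Cas9/+ mouse 2, at 435 to 478 FPKM in mouse 1, at 228 to 339 FPKM in +/+;Cas9/+ and at 319 to 476 FPKM in Pro/+; +/+ cells. Other genes of this kind differed: Vegfa, a vessel growth factor, was at 52.6, 33.6 and 64.8 FPKM in Pro/Pro;Cas9/+ mouse 2, lowest with gLmna-1, and its log2 difference between Pro/+; +/+ and +/+;Cas9/+ under gMock was −0.06. Slc2a1, a glucose transporter, was at 50.5, 60.5 and 60.5 FPKM in that mouse. These genes were chosen after their values were seen.

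A list of 24 genes tied to the response to low oxygen, Hif1a and Epas1 among them, was likewise chosen after Ndufa4l2 had been seen. For Pro/+; +/+ against +/+;Cas9/+ under gMock 0 were called (limma, all genes 0.413%). Of the 24, 14 had an unadjusted p under 0.05, as did 1577 of all 12599 genes. Among the 14, Pfkfb4 was lower at −0.91, and Hif1a was higher at 1.25. The median log2 difference of the list was 0.72 against −0.01 for all genes. For gLmna-2 against gLmna-1 in Pro/Pro;Cas9/+ cells 3 were lower (P4ha1 −0.61, P4ha2 −0.82 and Plod2 −0.64, which modify collagen) and 1 was higher (Epas1, 0.71), where 9.95% of all genes were called and 3.02% were lower, with a median of −0.23 against 0.06.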
